A study of Mus musculus with 2 samples.

Results

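Atf4, which encodes the transcription factor ATF4, and 9 genes of the amino acid stress response and serine synthesis that it is known to control were examined in regulatory T cells (Treg cells) of the mouse colon. The genes are Atf4, Ddit3, Trib3, Chac1, Sesn2, Asns, Phgdh, Psat1, Shmt2 and Mthfd2, taken by their symbols from the deposited gene table. They are 10 of 55246 loci in that table. Its symbols match 11 rows, because Ddit3 is listed under a second identifier (ENSMUSG00000116429) with 0 reads in both libraries, and that row was set aside. All 10 genes had at least 10 reads over both libraries and were among the 17363 genes tested.

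The study compared Treg cells of 2 genotypes, all taken in female mice from the lamina propria of the colon (the connective tissue beneath the gut lining). The WT library carries the normal Foxp3 gene, and the Exon2KO library carries a Foxp3 allele (written Foxp3∆2 in the series) without exon 2. Foxp3 encodes the transcription factor that defines Treg cells. Each genotype had 1 library, which leaves the spread between animals unknown. The labels give no strain, age, sorting gate or number of mice per library.

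ATF4 is made when kinases that sense missing amino acids, endoplasmic reticulum stress, viral RNA or haem shortage phosphorylate the initiation factor eIF2. General translation then drops while the Atf4 reading frame is translated more, so ATF4 protein can change while its mRNA does not. ATF4 in turn activates genes for amino acid synthesis, uptake and tRNA charging, and, under lasting stress, the factor CHOP encoded by Ddit3. Dividing T cells are known to depend on serine and the one-carbon units drawn from it, which feed nucleotide synthesis.

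The libraries held 16281133 (WT) and 15412425 (Exon2KO) reads assigned to genes. Levels below are reads per 1000000 assigned reads after TMM scaling (CPM) unless another unit is named, and ratios are Exon2KO over WT. All 10 T cell markers were detected in both libraries, with a summed level of 6424 CPM in WT and 5061 in Exon2KO. Of these, Cd5 was called lower, and without the fold threshold 6 were lower and 2 higher. The 10 Treg markers had a median log2 ratio of -0.86. Foxp3 (445 and 1310 CPM) and Il10 were called higher, and 5 were called lower: Ikzf2 (540.1 and 27.5 CPM), Ikzf4 (68.6 and 16.01 CPM), Tnfrsf9, Tnfrsf18 and Tnfrsf4. Foxp3 was thus present in both libraries, as the label has it. Reads of other cells were present. The 10 B and plasma cell markers summed to 8039 and 7459.6 CPM, nearly all of it Jchain, and 1 was called higher and 2 lower. The 14 epithelial markers summed to 99.7 and 500.4 CPM, and 11 were called higher. Without the fold threshold 2 of the 14 were lower. The 12 myeloid markers (245 and 258 CPM) had S100a8 and S100a9 at 0 in WT, with none called. The 12 stromal and endothelial markers (80.9 and 78.8 CPM) had Pdgfrb and Cdh5 at 0 in WT, and 3 were called higher. No T cell, Treg, epithelial or B and plasma cell marker was at 0. The part of these cells in the results below was not tested, and in bulk RNA fewer cells of a type cannot be told apart from less RNA per cell.

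The enzymes of serine and asparagine synthesis had fewer reads in the Exon2KO library, whereas Atf4 and the stress genes Ddit3, Trib3 and Sesn2 stood close to their WT level. Another stress gene, Chac1, was lower on few reads, at -0.62. Psat1, Phgdh and Asns had log2 ratios of -1.12, -0.94 and -0.82, and the mitochondrial folate enzymes Mthfd2 and Shmt2 were at -0.37 and -0.35. Calls required both a 2-fold ratio or more and an adjusted p under 0.05 from an exact binomial test (2-sided) on the read counts. By this rule 1 of the 10 genes, Psat1, was called lower and 0 were called higher. Over all tested genes 6.81% were called lower and 7.31% higher, so the count of called members was near the background. These are 1183 and 1270 genes, and with libraries scaled to the T cell markers the split was 986 lower and 1599 higher. Without the fold threshold, 6 of the 10 were lower (Asns, Chac1, Psat1, Phgdh, Shmt2 and Mthfd2) and 1 was higher (Atf4), where the background was 22.3% lower and 19.8% higher. The test detects smaller ratios in genes with more reads, such as Atf4, and the background holds every gene with 10 reads or more. Shares without the fold threshold, here and for the lists below, were not matched for reads, so they are not compared at like depth. The median log2 ratio was -0.36 over the 10 genes and 0.0035 over all tested genes. Total-count scaling moves log2 ratios up by about 0.106 and T cell marker scaling by about 0.137, so gene values and list medians just below 0 turn positive with them. Such a test says how these 2 libraries differ, not how the genotypes do, and every interval covers counting error only.

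**Figure D1:**
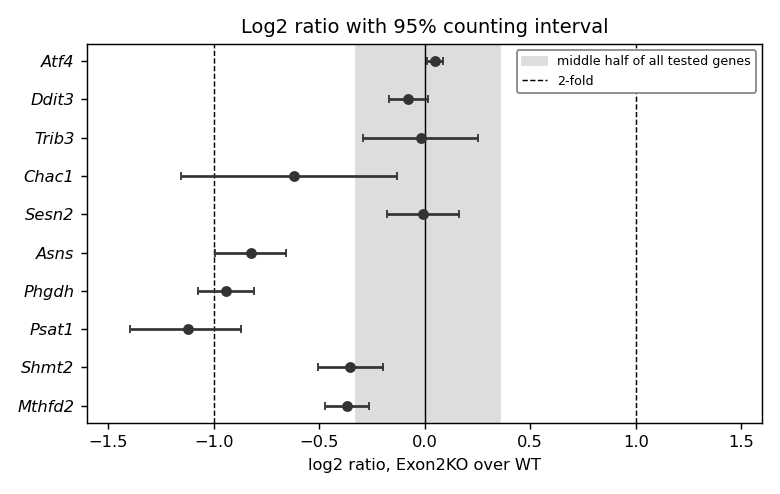
Log2 ratio (Exon2KO over WT, horizontal axis) of each of the 10 genes, with bars for the 95% Clopper-Pearson counting interval. The grey band is the interquartile range of all tested genes and dashed lines mark 2-fold. Psat1 at -1.12 is the only gene past the line, and Phgdh, Asns, Chac1, Mthfd2 and Shmt2 also lie below the band, the last 2 just outside it.

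Promoter letters are shown for the 3 genes whose RefSeq window (GRCm38.p6, from 250 bases before to 50 after the start) holds the core of the known ATF4 response element, and for the 2 serine synthesis genes with the lowest ratios. The core was searched as TGATGNAA on both strands, and CCAAT and GTTACA were searched in the same way. Strands below are that of the gene, position 1 is the RefSeq start, and the capitals mark the matches.
Asns, chr6:7693207-7693234, minus strand, positions -25 to 3: caTGATGAAActtcccgcacgcGTTACA
Chac1, chr2:119351027-119351076, plus strand, positions -215 to -166: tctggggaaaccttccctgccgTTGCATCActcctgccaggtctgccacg
Trib3, chr2:152344031-152344055, minus strand, positions 6 to 30: agctcaggtTTACATCAgccgggcg
Psat1, chr19:15925060-15925139, minus strand, positions -80 to -1: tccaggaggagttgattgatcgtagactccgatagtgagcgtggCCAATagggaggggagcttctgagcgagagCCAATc
Phgdh, chr3:98339988-98340068, minus strand, positions -99 to -19: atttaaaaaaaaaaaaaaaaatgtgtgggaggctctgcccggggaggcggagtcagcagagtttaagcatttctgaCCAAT

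In Asns the capitals are TGATGAAA and, downstream of it, GTTACA, the pair of elements known from its amino acid response. The Asns match lies before the RefSeq start but inside the first exon (5′ UTR) of the longest GENCODE M21 model, which begins at 7693254. In Chac1 and Trib3 the core is on the opposite strand (TGATGCAA and TGATGTAA), and both matches lie upstream of the GENCODE gene. The Trib3 match lies inside the RefSeq transcript, at positions 15 to 22. The Psat1 window lies upstream of the RefSeq start, inside an intron of a longer GENCODE model. The core was found in 3 of the 10 genes (all 10 matched the RefSeq table) and in 3.97% of 32851 windows of the same length. CCAAT was found in 7 of the 10 and in 37.4% of windows, and GTTACA in 1 of the 10 and in 8.25% of windows. TGACGTCA was found in 0 of the 10 and in 1.79% of windows. The 3 genes with the core did not share a ratio: Asns was at -0.82, Chac1 at -0.62 and Trib3 at -0.02.

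Atf4 (ENSMUSG00000042406, chromosome 15, 80255184 to 80257541, GRCm38) was by far the most abundant of the 10. It had 11312 reads in WT and 11910 in Exon2KO, or 721 and 745 CPM. The log2 ratio was 0.05 (95% interval 0.01 to 0.08). The adjusted p of the exact binomial test was 0.0311, far short of 2-fold. Its ratio exceeded that of 53.7% of tested genes, close to the middle of the transcriptome.

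Ddit3 (chromosome 10, 127290774 to 127296288) encodes CHOP, a bZIP factor of prolonged stress. It had 1974 and 1906 reads, 126 and 119 CPM, with a log2 ratio of -0.08 (-0.17 to 0.01). Its reads did not allow a difference to be detected (adjusted p = 0.179, exact binomial test). Its end overlaps Mars on the opposite strand by 68 bases, and whether counting used strand is not given in the sources used here.

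Trib3 (chromosome 2, 152337422 to 152344032) encodes a pseudokinase that binds AKT and feeds back on ATF4. It had 224 and 225 reads, 14.3 and 14.1 CPM, a log2 ratio of -0.02 (-0.29 to 0.25). Sesn2 (chromosome 4, 132492032 to 132510501) encodes Sestrin 2, a leucine sensor that holds back mTORC1. It had 560 and 567 reads, 35.7 and 35.5 CPM, a log2 ratio of -0.01 (-0.18 to 0.16). Both had nearly equal levels in the 2 libraries, though the counts of Trib3 leave room for a log2 ratio as low as -0.29. With total-count scaling the ratios of Ddit3, Trib3 and Sesn2 turned positive (0.029, 0.085 and 0.097).

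Chac1 (chromosome 2, 119351229 to 119354381) encodes an enzyme that breaks down glutathione and is among the sharpest markers of ATF4 and CHOP activity. It was the least abundant of the 10, at 84 (WT) and 55 (Exon2KO) reads, 5.35 and 3.44 CPM. Its log2 ratio was -0.62 with a wide interval (-1.16 to -0.13), and the adjusted p of the exact binomial test was 0.0283. With total counts that adjusted p was 0.0715 and with T cell marker scaling 0.098, so Chac1 then left the genes that were lower. At this depth the interval of Chac1 overlapped that of each of the other genes except Atf4.

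Phgdh (chromosome 3, 98313170 to 98339990), the first enzyme of serine synthesis, oxidises 3-phosphoglycerate drawn from glycolysis. It had 1340 reads in WT and 710 in Exon2KO, 85.4 and 44.4 CPM. The log2 ratio was -0.94 (-1.08 to -0.81), 1.92-fold lower, with an adjusted p of 1.03e-45 in the exact binomial test. The interval includes the 2-fold threshold that the gene did not reach.

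Psat1 (ENSMUSG00000024640, chromosome 19, 15904678 to 15947337), the aminotransferase of the next step, fell from 383 reads to 178, or from 24.4 to 11.1 CPM. The log2 ratio was -1.12 (-1.40 to -0.87), 2.18-fold lower, with an adjusted p of 6.21e-18 in the exact binomial test. The processed pseudogene Gm3329 lies inside the gene on the opposite strand and had 0 reads in both libraries. With libraries scaled to the T cell markers the ratio was -0.99 and the call was lost, and with an assumed spread between samples it was lost as well (adjusted p = 0.105 in edgeR's exact test with a coefficient of variation of 0.2). In the authors' deposited table the log2 fold change of Psat1 is -1.13 with an adjusted p of 0.131. The unadjusted p in that table, 0.00927, is the same as in edgeR's exact test with that assumed spread, and the other 9 genes match nearly as closely, so the table is no separate evidence.

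Asns (chromosome 6, 7675169 to 7693254) encodes asparagine synthetase, which makes asparagine from aspartate and glutamine. It had 793 reads in WT and 456 in Exon2KO, 50.5 and 28.5 CPM. The log2 ratio was -0.82 (-0.99 to -0.66), 1.77-fold lower, with an adjusted p of 6.49e-22 in the exact binomial test. The intervals of Phgdh, Psat1 and Asns overlapped one another and lay below those of Shmt2, Mthfd2, Ddit3, Trib3, Sesn2 and Atf4.

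The mitochondrial enzymes that take one-carbon units from serine had values between these groups, though the intervals of both overlapped that of Trib3. Shmt2 (chromosome 10, 127517123 to 127522444), which splits serine into glycine and a folate-bound carbon, had 775 and 618 reads, 49.4 and 38.7 CPM. Its log2 ratio was -0.35 (-0.51 to -0.20; adjusted p = 3.10e-05, exact binomial test). Mthfd2 (chromosome 6, 83305691 to 83325908), which oxidises that carbon unit further, had 1757 and 1386 reads, 112 and 86.7 CPM. Its log2 ratio was -0.37 (-0.47 to -0.27; adjusted p = 1.08e-11, exact binomial test). The values of both were 1.28-fold and 1.29-fold lower, about the same size. Genes with reads overlap 2 members on the same strand: Gm43890 inside Mthfd2 had 13 and 19 reads, and Gm12981 inside Sesn2 had 6 and 7. On the opposite strand, besides Mars, Gm4189 overlaps Ddit3 by 15 bases (11 and 5 reads) and Ndufa4l2 overlaps Shmt2 by 32 bases (2 and 1). In the authors' deposited table the adjusted p of the 10 genes is 0.131 or more. Its method is not stated beside its columns, but its p-values for these genes nearly match edgeR's exact test with the assumed spread of 0.2.

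**Figure D2:**
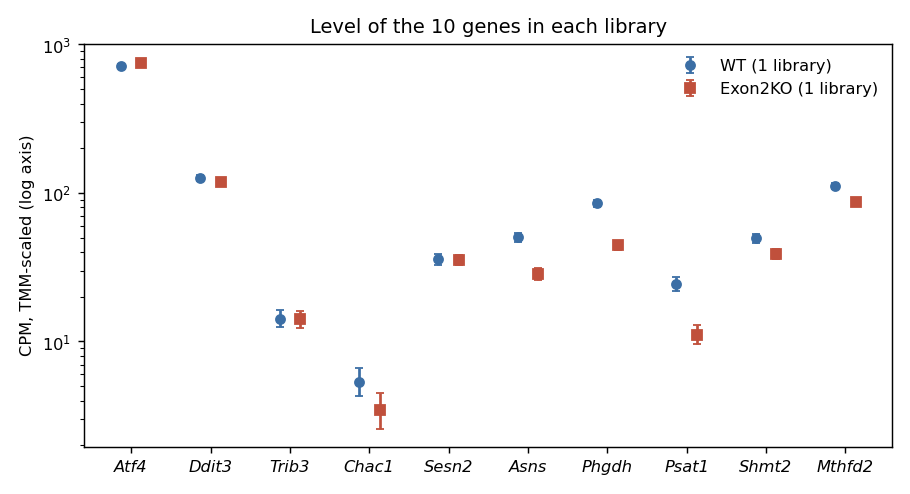
Level of the 10 genes in CPM (log axis) in the WT library (circles) and the Exon2KO library (squares), with bars for the 95% Poisson counting interval, which is smaller than the symbol for many genes. The symbols of Atf4, Ddit3, Trib3 and Sesn2 lie side by side, while Asns (50.5 and 28.5), Phgdh (85.4 and 44.4) and Psat1 (24.4 and 11.1) separate.

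Library scaling cancels when each gene is expressed per 100 reads of Atf4 in the same library. Phgdh went from 11.8 reads per 100 Atf4 reads in WT to 5.96 in Exon2KO, Psat1 from 3.39 to 1.49 and Asns from 7.01 to 3.83. The log2 ratios of these quotients were -0.99 (95% interval -1.13 to -0.85), -1.18 (-1.45 to -0.92) and -0.87 (-1.05 to -0.70). Mthfd2 went from 15.5 to 11.6 and Shmt2 from 6.85 to 5.19. Chac1 went from 0.743 to 0.462, at -0.69 (-1.20 to -0.18), and Ddit3 from 17.5 to 16.003, a small difference at -0.12 (-0.22 to -0.03) whose interval does not reach 0. Trib3 (1.98 and 1.89) and Sesn2 (4.95 and 4.76) had log2 intervals that include 0, from -0.34 to 0.21 and from -0.23 to 0.12.

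Per gene length, in the FPKM values deposited by the authors, the WT order was Atf4 (304), Ddit3 (73.1), Phgdh (34.2), Mthfd2 (31.9), Asns (18.4), Shmt2 (15.8), Sesn2 (10.2), Trib3 (6.68), Psat1 (5.71) and Chac1 (3.25). Phgdh and Mthfd2, and Trib3 and Psat1, did not differ beyond their counting intervals in that order. In Exon2KO the first ranks were again Atf4 (317) and Ddit3 (69.9), but Mthfd2 (24.98) stood above Phgdh (17.95) and Shmt2 (12.49) above Asns (10.48). Sesn2 (10.3) and Asns, and Psat1 (2.63) and Chac1 (2.11), did not differ beyond their counting intervals there. Psat1 exceeded 65.8% of tested genes in WT FPKM and 51.0% in Exon2KO FPKM. The same shares for Atf4 were 98.8% and 99.0%.

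**Figure D3:**
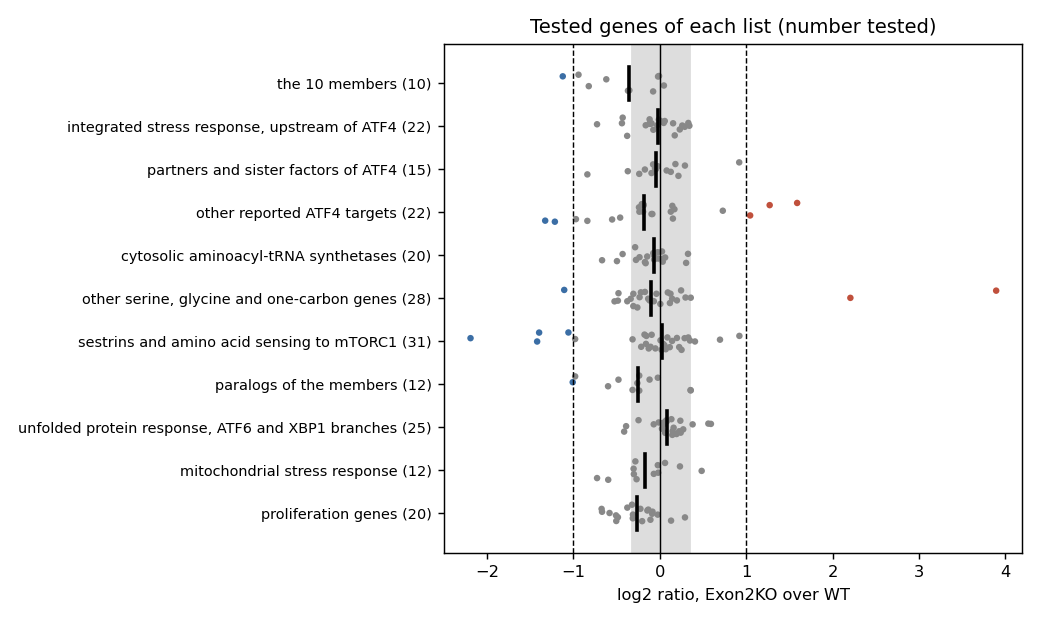
Log2 ratio (Exon2KO over WT) of the 10 members and of the tested genes in each pathway list, 1 point per gene and the number tested in brackets, with the median as a black bar. Marker lists are not shown. Blue points were called lower and red points higher, the grey band is the interquartile range of all tested genes and dashed lines mark 2-fold. The median of the 10 genes, -0.36, is the lowest of the lists shown, and Gldc at 3.89 is the highest point. Members and lists were chosen with earlier results of these data known.

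Upstream of ATF4, 22 genes were all tested: the eIF2 kinases and regulators of GCN2, eIF2, its exchange factor eIF2B, its phosphatase subunits, factors that help translate Atf4, and the ubiquitin ligase subunits Fbxw11 and Btrc, which act on ATF4 protein. None was called in either direction, and the median log2 ratio was -0.02. Over all tested genes 7.31% were called higher and 6.81% lower. Without the fold threshold 5 of the 22 were higher and 5 lower, beside 19.8% and 22.3% of all tested genes. The amino acid sensing kinase GCN2 (Eif2ak4) was at 0.02 (-0.34 to 0.37) with 135 and 139 reads. PERK (Eif2ak3), the kinase of the endoplasmic reticulum, was at 0.23 (0.02 to 0.44), HRI (Eif2ak1), the haem-regulated kinase, at -0.43 (-0.56 to -0.30) and PKR (Eif2ak2), the kinase of viral RNA, at -0.38 (-0.59 to -0.17). Ppp1r15a, which encodes GADD34, the inducible subunit that dephosphorylates eIF2, went from 1444 to 873 CPM, a log2 ratio of -0.73 (-0.76 to -0.70), short of 2-fold. Ppp1r15a and the kinases were singled out after their values were seen.

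Of 16 partners and sister factors of ATF4, 15 were tested, none was called and the median was -0.04. Over all tested genes 7.31% were called higher and 6.81% lower. Without the fold threshold 1 of the 15 was higher and 2 were lower, beside 19.8% and 22.3%. Atf3, a stress-induced bZIP factor singled out after its values were seen, had the lowest ratio, at -0.84 (-0.91 to -0.76) with 4039 and 2300 reads. Atf7, a relative that binds the same kind of element and was also singled out afterwards, had the highest, at 0.92 (0.61 to 1.26) with 120 and 233 reads. Cebpb, which pairs with ATF4, was at -0.24 (-0.31 to -0.16). Atf5 had 12 reads in each library, too few to show a difference.

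Of 27 other reported ATF4 targets, 22 were tested, 3 were called higher and 2 lower, with a median of -0.19. The background over all tested genes was 7.31% called higher and 6.81% lower. Without the fold threshold 6 of these targets were higher and 8 lower, beside 19.8% and 22.3%. Ddit4, an mTORC1 inhibitor also known as REDD1, rose to 202 reads in Exon2KO from 95 in WT, with a log2 ratio of 1.05 (0.70 to 1.43). Its call was lost with the assumed spread. Jdp2, a bZIP repressor, fell from 194 to 84 reads, at -1.21 (-1.62 to -0.86), and also lost its call with the assumed spread (adjusted p = 0.0853, edgeR's exact test). The other calls, Cth and Gdf15 higher and Bcat1 lower, had at most 47 reads in a library and were named after their values were seen. They too missed the threshold with the assumed spread of 0.2 (adjusted p = 0.0583, 0.307 and 0.22 in edgeR's exact test). Of 20 cytosolic aminoacyl-tRNA synthetases, which charge tRNAs with amino acids, none was called and the median was -0.07. Without the fold threshold 10 of them were lower and 2 higher, beside 22.3% and 19.8% of all tested genes. Vars and Sars, singled out after their values were seen, had the lowest ratios, at -0.67 (-0.84 to -0.50) and -0.50 (-0.60 to -0.39).

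Of 32 other genes of serine, glycine and one-carbon metabolism, 28 were tested, 2 were called higher and 1 lower, with a median of -0.11, beside the background of 7.31% and 6.81%. Without the fold threshold 10 were lower and 3 higher, beside 22.3% and 19.8% of all tested genes. Psph, the last enzyme of serine synthesis and singled out after its values were seen, had 463 and 373 reads, a log2 ratio of -0.34 (-0.54 to -0.14). All 3 steps of the pathway thus had log2 ratios below 0 by more than any scaling tried shifts them, but only Psat1 was called. Gldc, the glycine decarboxylase of the mitochondrial glycine cleavage system (chromosome 19, 30098449 to 30175418), went the other way and rose from 101 to 1558 reads, or from 6.44 to 97.4 CPM. Its log2 ratio was 3.89 (3.63 to 4.23), 14.9-fold higher. The authors' deposited table gives 3.92 with an adjusted p of 1.15e-13. Its p-values for the members nearly match edgeR's exact test with an assumed spread of 0.2. The other subunits, named after their values were seen, were not called. Gcsh was at -0.38 (-0.70 to -0.07), Dld at -0.07 (-0.17 to 0.04) and Amt, with 16 and 19 reads, at 0.20 (-0.82 to 1.28). Of the 14 epithelial markers 11 were called higher, as Gldc was, and 2 had ratios below 0. Their part in the count of Gldc was not tested. Mtrr, which keeps methionine synthase active, fell from 518 to 244 reads, at -1.11 (-1.34 to -0.89), and with T cell marker scaling it lost its call at -0.97. The remaining call, Aldh1l1, named after its values were seen, had 1 and 12 reads, a log2 ratio of 2.21 with an interval from 0.80 to 8.98, and missed the threshold with the assumed spread of 0.2 (adjusted p = 0.0973, edgeR's exact test).

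**Figure D4:**
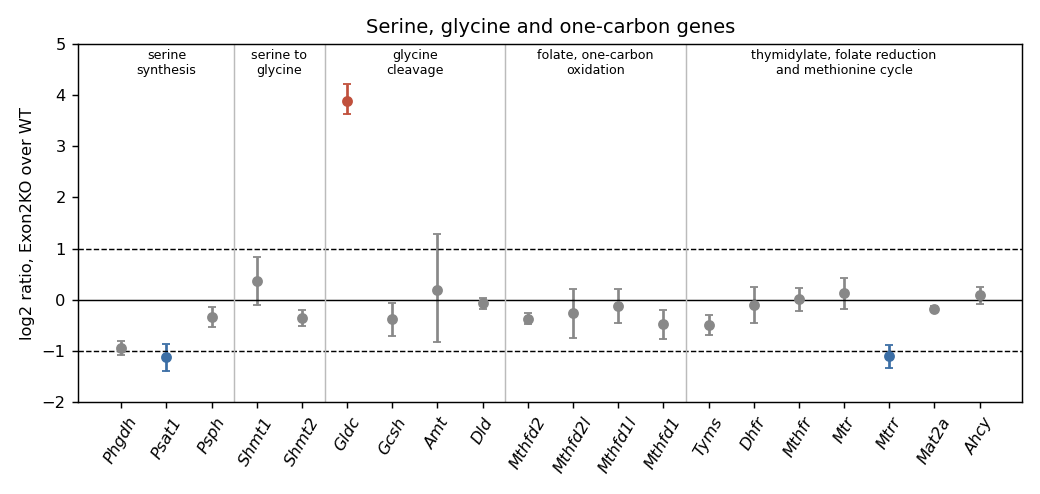
Log2 ratio (Exon2KO over WT) of 20 genes of serine, glycine and one-carbon metabolism, ordered by step, with bars for the 95% counting interval and dashed lines at 2-fold. Blue points were called lower (Psat1 at -1.12 and Mtrr at -1.11) and the red point higher (Gldc at 3.89). Aldh1l1, called higher at 2.21 on 1 and 12 reads, is not among the genes shown.

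The paralogs of the 10 genes differed among themselves. Sesn1, a Sestrin also driven by FOXO and p53, was at -0.98 (-1.11 to -0.86) with 1570 and 810 reads, and Sesn3 at -0.32 (-0.48 to -0.15), against -0.01 for Sesn2. Trib1 fell from 695 to 351 reads, at -1.01 (-1.20 to -0.83), a call that DESeq2 size factors ended at -0.99. Trib2 was at 0.36 (0.28 to 0.43) and Trib3 at -0.02, so the intervals of the 3 Tribbles genes showed Trib1 below the other two. Chac2, with 59 and 39 reads, was at -0.60 (-1.25 to -0.02), close to Chac1. The cytosolic Shmt1, with 70 and 92 reads, was at 0.36 (-0.10 to 0.84), above the interval of the mitochondrial Shmt2. Mthfd1, Mthfd1l and Mthfd2l were at -0.48 (-0.78 to -0.19), -0.12 (-0.45 to 0.21) and -0.26 (-0.74 to 0.20), and all 3 intervals overlapped that of Mthfd2. Asnsd1 was at -0.24 (-0.71 to 0.22).

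Of 32 genes that carry amino acid signals to mTORC1, the growth kinase that Sesn2 restrains, 31 were tested, 4 were called lower and none higher, with a median of 0.02. Castor1, an arginine sensor, fell from 795 to 388 reads, at -1.06 (-1.24 to -0.88), and with total counts it lost its call at -0.95. The Rag GTPase genes Rragb (90 and 33 reads, -1.42, -2.10 to -0.88) and Rragd (148 and 56 reads, -1.40, -1.90 to -0.98) also fell, while Rraga and Rragc were at 0.05 and -0.09. With a coefficient of variation of 0.2 the call of Rragb was lost (adjusted p = 0.0604, edgeR's exact test) and that of Rragd was kept (0.0422). The authors' deposited table gives adjusted p values of 0.0781 and 0.0545 for them. Its p-values for the members nearly match that same test. The remaining call was Fnip2, with 25 and 4 reads and a log2 ratio of -2.19 (-4.65 to -1.14). Its call was kept with a coefficient of variation of 0.2 (adjusted p = 0.0298, edgeR's exact test) and lost with 0.4 (0.576). Below 2-fold, Depdc5 was at 0.92 (0.46 to 1.45) with 54 and 106 reads and Fnip1 at 0.70 (0.42 to 0.99) with 170 and 282. The genes of this list other than Castor1, Rragb and Rragd were named after their values were seen. A share of 4 of 31 called lower and none higher stands beside 6.81% and 7.31% of all tested genes. Without the fold threshold 9 were lower and 8 higher, beside 22.3% and 19.8%.

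The other branches of the unfolded protein response had ratios slightly above 0. Of 25 genes of the ATF6 and XBP1 branches, none was called, 20 had a ratio above 0 and the median was 0.08. Over all tested genes 7.31% were called higher and 6.81% lower. Without the fold threshold 14 were higher and 4 lower, where the background over all tested genes was 19.8% and 22.3%. The chaperone BiP (Hspa5) had 82025 and 79593 reads and a log2 ratio of -0.07 (-0.08 to -0.06), which turned positive with total counts (0.036). Xbp1 was at 0.16 (0.12 to 0.20) and Hyou1, with 295 and 454 reads, had the highest ratio at 0.59 (0.38 to 0.81). All 3 were singled out after their values were seen. Plasma cells also express these genes strongly, and their part was not tested. Of the 10 B and plasma cell markers, 9 had ratios below 0, among them Jchain at 7652 and 7113 CPM. The remaining 1, Sdc1, was called higher at a log2 ratio of 1.22. Of 20 proliferation genes, none was called, 18 had a ratio below 0 and the median was -0.27. Without the fold threshold 9 of them were lower and 1 was higher, beside the same 22.3% and 19.8%.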

How the data were processed

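The members and gene lists were chosen with earlier results of these data known. Per the submitters' processing notes, HISAT2 2.0.5, StringTie 1.3.3b, featureCounts 1.5.0-p3, DESeq2 1.16.1 and build mm10 were used, with no role given. Per the labels' protocols, 1 µg of RNA entered each library. The authors deposited raw counts per gene, which were the input to all tests, and FPKM values, used only to order genes by level. The authors also deposited a log2 fold change, p-values and adjusted p-values, quoted where named, and a count signal scaled between libraries, not used here. Gene coordinates of all 10 members equal those of GENCODE M21.

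Libraries were scaled by TMM (edgeR 4.0.16, R 4.3.3), the WT factor being 0.964 and the Exon2KO factor 1.04. A quasi-likelihood test needs replicates and could not be run. Genes with 10 reads or more over both libraries entered an exact binomial test (scipy 1.17.1), 2-sided, adjusted by Benjamini and Hochberg over all 17363 genes. Ratios use a prior count of 2, and intervals are Clopper-Pearson 95%, without the prior count. No molecular identifiers are described, so reads may share a molecule. The named genes are the members, their paralogs and, in each list, up to 3 called genes each way with at least 50 reads in 1 library; other pathway genes are marked where named, and single markers were named after their values were seen. Alternatives varied the scaling, the read minimum, the fold required, the prior count and the spread assumed. The scripts were tested on simulated data.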

Additional observations from a re-analysis of the deposited data

How the results depend on the processing

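Over the 5 scalings and 2 prior counts tried, Asns, Phgdh, Psat1, Shmt2, Mthfd2 and Chac1 stayed below 0 and Atf4 above it. The 2 assumed spreads leave the ratios unchanged. Each scaling moves all log2 ratios by nearly the same amount, at most about 0.137. A gene further below 0 than that could not change sign with scaling. Psat1 ranged from -1.13 to -0.99, Phgdh from -0.94 to -0.80 and Asns from -0.82 to -0.69. Total counts and T cell markers raised Ddit3 to 0.029 and 0.059, Trib3 to 0.085 and 0.12 and Sesn2 to 0.097 and 0.13, and DESeq2 size factors put Sesn2 at 0.0053. The number of called members was 0 with T cell marker scaling, 0 when the spread between samples (BCV, the biological coefficient of variation) was set to 0.2, 0 with 0.4, 0 at 4-fold, and 4 at 1.5-fold (Asns, Chac1, Psat1 and Phgdh). The adjusted p of Psat1 in edgeR's exact test was 0.105 with a BCV of 0.2 and 1.0 with 0.4.

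Over all genes, 1270 were called higher and 1183 lower. These counts were 579 and 536 with a BCV of 0.2, 86 and 78 with 0.4, 649 and 685 with at least 50 reads (12730 genes tested) and 499 and 408 at 4-fold, and 1870 and 1891 at 1.5-fold. The share of calls that were higher was 51.8%, and 61.9% with T cell marker scaling (1599 higher, 986 lower). Total counts moved the median of all tested genes to 0.11 and T cell markers to 0.14. With these 2 scalings the list medians became 0.085 and 0.12 for genes upstream of ATF4, 0.034 and 0.065 for tRNA synthetases, 0.061 and 0.092 for partners of ATF4, -0.0029 and 0.028 for other serine and one-carbon genes and 0.19 and 0.22 for the ATF6 and XBP1 branches, which follows the shift of the scaling.

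Alternatives were run for part of the other named genes and were chosen after seeing the data. Ddit4, Jdp2, Mtrr, Rragb, Castor1 and Trib1 lost their calls with a BCV of 0.2 and of 0.4, Rragd with 0.4 only, and Gldc with neither. Castor1, Mtrr and Trib1 also lost theirs with T cell markers, at -0.92, -0.97 and -0.87, and Castor1 and Trib1 with total counts, at -0.95 and -0.90. Among these, uncalled genes turned sign: Hspa5 (0.036 with total counts, 0.066 with T cell markers), Atf5 (0.068 and 0.094) and Mthfd1l (0.017 with T cell markers). Dld and Rragc were not recomputed, and their ratios lie within the shift of these scalings. No paired analysis was possible because each genotype has 1 library. Depth limits Chac1 most among the members.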

Other observations

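Genes of the mitochondrial stress response, which in many cells runs through ATF4 and its relative ATF5, were looked at as a further group. Of 12 genes, none was called in either direction and the median log2 ratio was -0.17. Over all tested genes 7.31% were called higher and 6.81% lower. Without the fold threshold 5 were lower and 1 was higher, beside 22.3% and 19.8% of all tested genes. The matrix chaperone gene Hspd1, which encodes HSP60, went from 2889 reads (WT) to 1945 (Exon2KO), and its log2 ratio was -0.60 (95% interval -0.68 to -0.51). The inner membrane protease gene Afg3l2 had 581 and 357 reads, at -0.73 (-0.92 to -0.54). Both were picked after their values were seen.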
